A study of Homo sapiens with 4 samples.

Results

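The genes described here are 8 human caspases, CASP1, CASP2, CASP4, CASP5, CASP6, CASP8, CASP9 and CASP10, out of 18417 genes measured on Affymetrix human gene arrays. They were chosen by name, with earlier results of these data known. Each had exactly 1 probe set that the platform annotation assigns to a single symbol, and all 8 were measured. The arrays were hybridized with RNA of cells labelled PC3, a line established from a bone metastasis of prostate cancer. PC3-PDEF cells (2 arrays) over-expressed PDEF, the ETS transcription factor encoded by SPDEF. PC3-SCR cells (2 arrays) carried the control vector, described by the labels as empty pBABE although SCR often stands for a scrambled sequence. Both were grown in the same serum-containing medium, and the study's methods describe stable transfection. Whether either line was a clone or a pool is not given in the sources used here.

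Caspases are cysteine proteases that cut their targets after aspartate and are made as inactive precursors. Initiator caspases are switched on within protein assemblies and cut executioner caspases, which dismantle the cell in apoptosis. Inflammatory caspases instead mature cytokines and open membrane pores in pyroptosis, a lytic form of cell death. Their activity depends on assembly and cleavage of the protein, which RNA signals do not measure.

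SPDEF itself was higher in PC3-PDEF arrays, with log2 signals of 6.85 and 6.73, against 5.99 and 6.06 in PC3-SCR arrays. PC3 cells are known to have lost both copies of CTNNA1 and of STAT3. Their signals were 9.05 to 9.86 in PC3-PDEF arrays and 4.07 to 4.77 in PC3-SCR arrays, so both PC3-PDEF arrays go against the label PC3. No comparison without these arrays is possible, and whatever separates the cells besides PDEF cannot be told apart from PDEF in every result that follows. Of 7 kidney and neuronal lineage genes, chosen as markers of other cells, 5 were higher and 1 was lower in PC3-PDEF, with summed linear signals of 2504 to 2788 in PC3-PDEF and 403 to 411 in PC3-SCR. Their part in the caspase results was not tested. Of 6 prostate luminal genes, 1 was higher (ACP3, near background) and 1 lower (KRT8, with 9.29 and 9.24 in PC3-PDEF against 9.91 and 9.89 in PC3-SCR), with summed signals of 1282 to 1327 in PC3-PDEF and 1703 to 1761 in PC3-SCR. HOXB13 had 6.78 and 6.74 in PC3-PDEF against 6.63 and 6.65 in PC3-SCR, whereas KLK2 and KLK3 were near background in both. Of 9 leukocyte genes, 0 exceeded the highest olfactory receptor gene on both arrays of either group, and PTPRC, the defining marker, lay between 2.68 and 2.85 on all 4 arrays. The summed leukocyte signal was 208 to 216 in PC3-PDEF and 236 to 243 in PC3-SCR, 1 gene (CORO1A) being lower by limma, while 0 were higher, also at an unadjusted p under 0.05. Of 7 fibroblast genes 3 were lower and 0 higher (summed signal 267 to 291 in PC3-PDEF, 506 to 580 in PC3-SCR). Of 5 endothelial genes 3 were lower and 0 higher (93.1 to 94.3 in PC3-PDEF, 203 to 231 in PC3-SCR). COL1A1, a fibroblast gene above background on all arrays, had 7.29 and 7.10 in PC3-PDEF against 8.66 and 8.41 in PC3-SCR. KDR, an endothelial gene, had 4.78 and 4.87 in PC3-PDEF, near background, against 6.95 and 7.15 in PC3-SCR. DCN and CDH5 were near background throughout.

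Olfactory receptor genes served as a gauge of background, on the untested assumption that these cells use few of them. None was left out by name, and OR2H2 was the highest on every array. The highest of 361 had log2 signals of 5.65 and 5.75 in PC3-PDEF and of 5.94 and 6.01 in PC3-SCR, and their medians lay between 3.27 and 3.40. A signal under the highest one is called near background here, and its change has no exact size. Where this holds on both arrays of 1 group alone, any fold given is a lower bound. It is set against the highest olfactory receptor gene on that group's own arrays.

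Of the 4 initiators CASP2 and CASP10 were higher in PC3-PDEF, as was the executioner CASP6, while of the 3 inflammatory members CASP4 and CASP1 were lower. CASP8, CASP9 and CASP5 did not pass the test. In all, 3 members were higher and 2 lower at an adjusted p under 0.05 from limma, that is 5 of 8, against a background of 50.7% of all genes called (26.7% higher and 24.0% lower). The share called was therefore near that of genes in general. Measured differences of at least 2-fold were found for 3 of 8 members, CASP4, CASP6 and CASP10, against 14.8% of all genes, but CASP10 was near background in both groups, so the size of its change is not known. The median log2 difference among the members was -0.02, against -0.05 over all genes, and the median of its absolute size was 0.58, against 0.30. The groups did not overlap for any of the 8 members, as for 74.7% of all genes. A lower signal can mean fewer cells that use a gene or less RNA per cell, which cannot be told apart in bulk RNA.

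**Figure D1:**
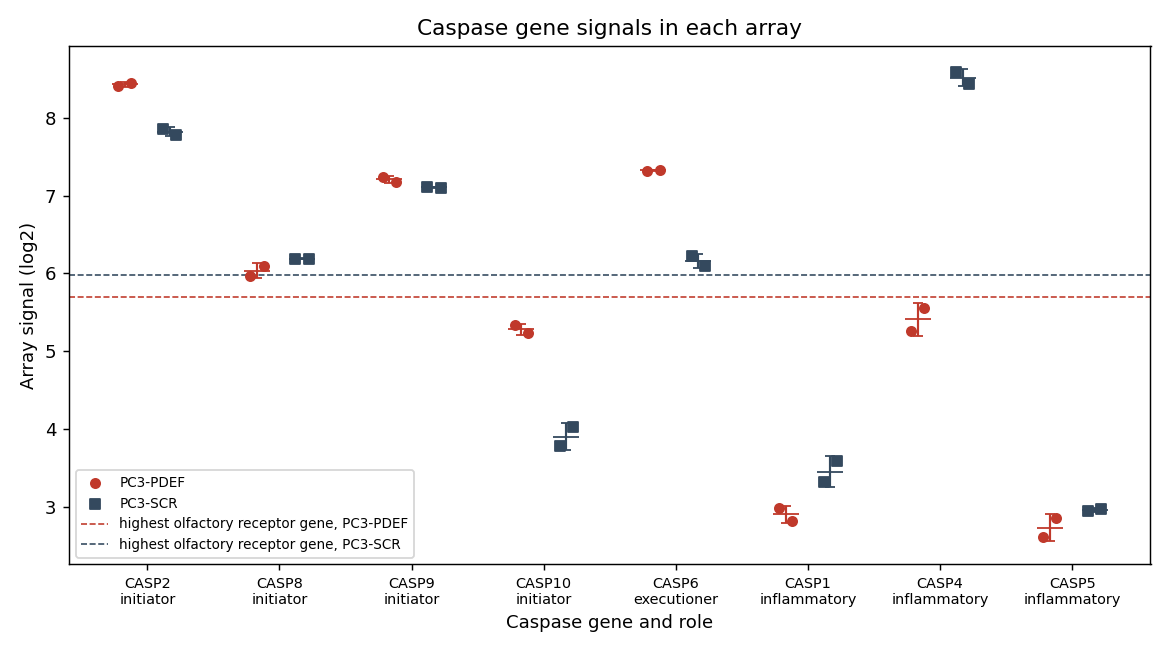
Log2 array signal (vertical axis) of each caspase gene (horizontal axis, with its role) in the arrays of PC3-PDEF (circles) and PC3-SCR (squares), with group means (horizontal marks) and SD (bars, n = 2). Dashed lines mark the group mean of the highest olfactory receptor gene, 5.70 in PC3-PDEF and 5.98 in PC3-SCR. CASP4 drops below its line in PC3-PDEF, CASP6 stands at 7.32 and 7.33 there, and CASP1, CASP5 and CASP10 lie below the lines in both groups.

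Among the initiators, CASP2, which is activated on the PIDDosome with the adaptors PIDD1 and CRADD, had log2 signals of 8.41 and 8.45 in PC3-PDEF, against 7.86 and 7.78 in PC3-SCR. Both PC3-PDEF arrays lay above both PC3-SCR arrays, and all 4 were well clear of background. CASP2 was 1.53-fold higher, a log2 difference of 0.61 with an SE of 0.083 (limma, adjusted p = 0.00117). CASP10, which like CASP8 is recruited to death receptors through FADD, had 5.33 and 5.23 in PC3-PDEF, against 3.78 and 4.02 in PC3-SCR. The log2 difference was 1.38 with an SE of 0.11 (limma, adjusted p = 0.000107), a rise. All 4 of its signals were below the highest olfactory receptor gene, so no fold is given, and with each array floored at that gene its log2 difference became -0.275, the difference between the floors. Its mean exceeded that of 99.4% of the olfactory receptor genes in PC3-PDEF and of 78.7% in PC3-SCR.

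CASP8, the principal initiator at death receptors and a brake on necroptosis, had 5.97 and 6.10 in PC3-PDEF, against 6.18 and 6.19 in PC3-SCR. Its PC3-PDEF signals were slightly the lower, and the log2 fold change of -0.15 (95% interval -0.36 to 0.06, adjusted p = 0.202 from limma) did not pass the test. CASP9, which is activated on the apoptosome, had 7.24 and 7.18 in PC3-PDEF, against 7.11 and 7.10 in PC3-SCR. The log2 fold change of 0.10 (95% interval -0.09 to 0.30, adjusted p = 0.325 from limma) did not pass the test either. For both genes the interval leaves out changes of 2-fold in either direction.

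The executioner CASP6, whose protease cuts lamin A in apoptosis, had 7.32 and 7.33 in PC3-PDEF, against 6.22 and 6.09 in PC3-SCR. The PC3-PDEF arrays gave nearly the same signal, well above both PC3-SCR arrays. CASP6 was 2.25-fold higher, a log2 difference of 1.17 with a 95% interval of 0.96 to 1.38 (limma, adjusted p = 8.89e-05). Of the members above background in both groups, it had the largest change.

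Among the inflammatory members, CASP4 had the largest measured difference of all 8. The CASP4 protein binds bacterial lipopolysaccharide inside cells and cuts gasdermin D. Its log2 signals were 5.26 and 5.56 in PC3-PDEF, against 8.59 and 8.44 in PC3-SCR. CASP4 was thus near background in both PC3-PDEF arrays and clearly present in both PC3-SCR arrays. CASP4 was at least 7.04-fold lower in PC3-PDEF, with a measured log2 difference of -3.11 and an SE of 0.12 (limma, adjusted p = 9.02e-06). With 1 floor of 5.84 for all arrays, the log2 difference was -2.68, a smaller bound. Even so the CASP4 mean in PC3-PDEF exceeded that of 99.4% of the olfactory receptor genes. The 3 genes whose profiles over the 4 arrays were most like that of CASP4 were RAC2, a small GTPase gene, TFPI2, a protease inhibitor gene, and SEMA7A, a semaphorin gene. Their Euclidean distances from it, after each gene was centred on its mean, were 0.043, 0.088 and 0.094 on the log2 scale.

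CASP1, the protease of canonical inflammasomes that matures IL1B and IL18, had 2.98 and 2.82 in PC3-PDEF, against 3.31 and 3.59 in PC3-SCR. These signals were lower in PC3-PDEF, but the means exceeded those of only 21.6% of the olfactory receptor genes in PC3-PDEF and 53.5% in PC3-SCR. The log2 difference was -0.55 with an SE of 0.12 (limma, adjusted p = 0.00958). The call was lost without PC3-SCR replicate 2 (adjusted p = 0.0891), without PC3-PDEF replicate 1 (adjusted p = 0.0967) and without PC3-PDEF replicate 2 (adjusted p = 0.156). CASP5, a close relative of CASP4 that also senses lipopolysaccharide, had 2.61 and 2.85 in PC3-PDEF, against 2.94 and 2.97 in PC3-SCR. Its log2 fold change was -0.22 (95% interval -0.48 to 0.03, adjusted p = 0.122 from limma), and it was near background on all 4 arrays. CASP1 shares long stretches with CARD16 and CARD17P, copies of its first part, and CASP4 with CASP5, so hybridization to a relative cannot be separated here.

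**Figure D2:**
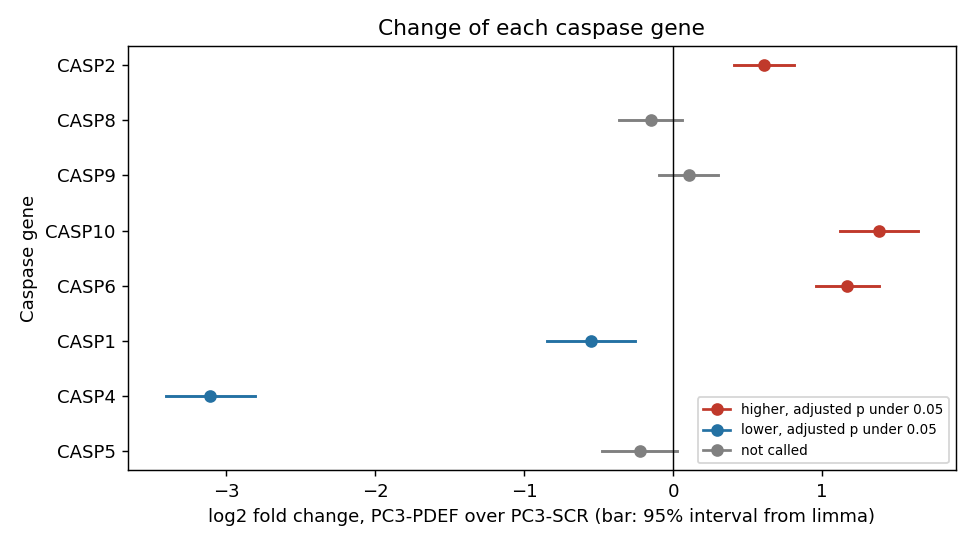
Log2 fold change between PC3-PDEF and PC3-SCR (horizontal axis) of each caspase gene (vertical axis), with the 95% interval from limma as a bar and 2 arrays per group. CASP4 stands far to the lower side at -3.11, CASP10 and CASP6 lie beyond 1 on the higher side, and the intervals of CASP8, CASP9 and CASP5 cross 0.

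Promoter windows of 250 bases before the gene start were available from RefSeq (GRCh38.p14) for 6 of the 8 members, 10 windows in all, since CASP2, CASP8 and CASP9 have several. CASP10 and CASP1 have none in the table. The windows of CASP4 and CASP5 are shown because these adjacent relatives were measured so differently in PC3-SCR, CASP4 clear of background and CASP5 not. Capitals mark the 8 runs of at least 8 bases, the longest of 12, that are identical in both when the windows are aligned. Both are on the minus strand and written 5′ to 3′, CASP4 at chr11:104968575-104968824 and CASP5 at chr11:105023169-105023418.
CASP4: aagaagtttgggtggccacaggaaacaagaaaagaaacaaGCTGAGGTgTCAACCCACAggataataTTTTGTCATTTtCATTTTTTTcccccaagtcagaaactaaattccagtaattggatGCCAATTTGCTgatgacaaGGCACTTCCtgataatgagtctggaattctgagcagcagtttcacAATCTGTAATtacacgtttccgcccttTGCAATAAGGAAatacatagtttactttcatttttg
CASP5: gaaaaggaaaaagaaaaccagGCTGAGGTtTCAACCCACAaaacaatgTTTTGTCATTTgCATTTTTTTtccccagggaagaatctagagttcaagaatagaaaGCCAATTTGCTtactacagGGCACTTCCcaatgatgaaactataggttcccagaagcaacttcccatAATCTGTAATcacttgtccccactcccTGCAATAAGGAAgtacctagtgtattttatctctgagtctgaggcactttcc
Of the aligned bases 73.6% were identical between these windows (170 of 231, with 38 gap positions), the highest share among the pairs of member windows. The runs in capitals hold 80 bases of each. G and C made up 74.0% of the CASP6 window and 71.2% and 44.0% of the CASP2 windows, against 38.0% for CASP4, 40.4% for CASP5 and a median of 58.0% over all 35116 windows. They made up 77.6% and 71.6% of the windows of CASP9, which did not pass the test.

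The member windows were searched on both strands for 5 motifs. CCGGAT, the core GGAT that PDEF prefers with CC before it, had no match in any member window and a match in 5.85% of all windows. CCGGAA, the usual ETS core GGAA with the same flank, matched the CASP9 window at chr1:15524216-15524465 and 14.5% of all windows. The bare cores GGAT and GGAA were not searched, and the CASP4 window printed above holds both. The interferon-stimulated response element, searched as GAAA, any pair of bases and GAAA again, matched CASP5 in overlapping places, GAAAAGGAAA and GAAAAAGAAA, and 3.02% of all windows. TTCNNNGAA, the element of STAT dimers, matched CASP5 as TTCCCAGAA, CASP8 as TTCCAAGAA and 6.57% of all windows. TGANTCA, the AP-1 element, matched a window of CASP8 as TGACTCA and likewise 6.57% of all windows. The CASP4, CASP2 and CASP6 windows held no match to any of the 5. A match is a description of sequence and no evidence of binding.

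CASP4, CASP5 and CASP1 lie next to each other on chromosome 11, and CASP10 and CASP8 on chromosome 2, so the nearest measured genes were compared. Around the inflammatory caspases most genes were near background in both groups, where a fall could not be seen. CASP12, a caspase relative on the CASP4 side, had 3.18 and 3.30 in PC3-PDEF against 3.36 and 3.52 in PC3-SCR (adjusted p = 0.136 from limma), and DDI1 on its far side was near background as well. CARD16, CARD17P and CARD18 lie beyond CASP1, and CARD16 and CARD18 encode short proteins that can bind it. Signals of CARD16, CARD17P and CARD18 were from 2.77 to 3.38 on all arrays, and none passed the test (log2 fold changes -0.19, -0.09 and 0.10). PDGFD, a growth factor gene beyond DDI1, had 3.66 and 3.89 in PC3-PDEF and 5.86 and 6.28 in PC3-SCR. PDGFD was called lower like CASP4 and CASP1 (adjusted p = 6.20e-05 from limma), by at least 1.29-fold. Of its PC3-SCR signals 1 was above the highest olfactory receptor gene of its array, and with 1 floor of 5.84 for all arrays the call was lost (log2 difference -0.23, adjusted p = 0.648 from limma).

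On chromosome 2, CASP10 rose while its neighbours CASP8 and CFLAR did not pass the test. CFLAR, which encodes FLIP, a catalytically inactive relative that restrains CASP8, had 5.67 and 5.65 in PC3-PDEF, against 5.62 and 5.62 in PC3-SCR (adjusted p = 0.709 from limma). Further out, HYCC2 rose by 0.49 and STRADB, a pseudokinase gene, by 0.86, while NDUFB3, FLACC1 and TRAK2 did not pass the test. HYCC2 lost its call when either PC3-SCR array (adjusted p = 0.0744 and 0.0585) or PC3-PDEF replicate 2 (adjusted p = 0.0615) was left out. TRAK2, with a log2 fold change of -0.35, had an adjusted p of 0.0551, and of 0.0323 without PC3-SCR replicate 2.

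**Figure D3:**
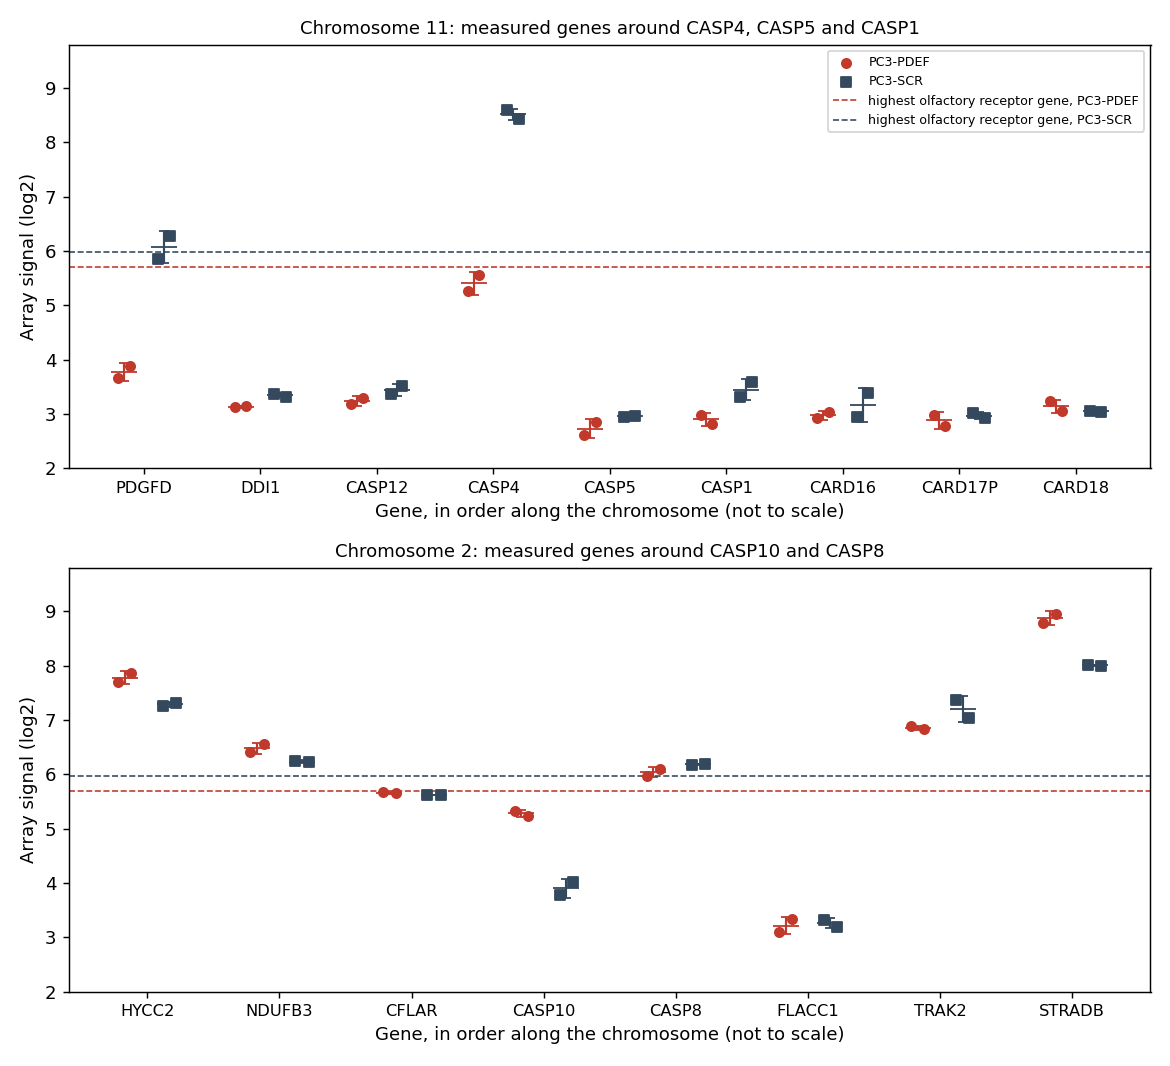
Log2 array signal (vertical axis) of the measured genes next to CASP4, CASP5 and CASP1 (top) and next to CASP10 and CASP8 (bottom), in order along the chromosome (horizontal axis, not to scale), in PC3-PDEF (circles) and PC3-SCR (squares) arrays, with group means, SD (bars, n = 2) and the highest olfactory receptor gene of each group (dashed lines). In the top panel CASP4 at 8.59 and 8.44 in PC3-SCR stands above neighbours that, PDGFD aside, lie between 2.61 and 3.59 on all arrays.

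Genes that act with the caspases were then followed in 5 lists, chosen with earlier results of these data known. The counts of these lists are to be read against the 26.7% of all genes that were higher and the 24.0% that were lower. Of 7 apoptosome and mitochondrial release genes, all measured, 4 rose, 0 fell by limma (also 0 at an unadjusted p under 0.05, and 1 after quantile normalization) and 3 did not pass the test, a share called near the 50.7% of all genes. APAF1, the scaffold on which CASP9 is activated, had 8.57 and 8.70 in PC3-PDEF, against 7.60 and 7.39 in PC3-SCR. This was a log2 difference of 1.14 with an SE of 0.11 (limma, adjusted p = 0.000218). AIFM1, a mitochondrial flavoprotein gene, rose by 0.77, and DIABLO, whose product blocks inhibitors of caspases, rose by 0.40. DIABLO lost its call without either PC3-SCR array (adjusted p = 0.0930 and 0.0926) or PC3-PDEF replicate 2 (adjusted p = 0.0752), and without either PC3-SCR array 2 of the list were higher. Over the list the median log2 difference was 0.30, against -0.05 over all genes.

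Of 15 measured genes of death receptor complexes and the PIDDosome, of 16 listed, 2 rose and 6 fell, while 7 missed the threshold, with a median log2 fold change of -0.13. The share called was again near the 50.7% of all genes. CASP8AP2, named for its binding of CASP8 and also needed for histone RNA processing, rose by 1.90, with 8.12 and 8.31 in PC3-PDEF against 6.48 and 6.16 in PC3-SCR. The receptor gene FAS was at least 1.32-fold higher. MLKL, the pore-forming effector of necroptosis, had 5.01 and 4.91 in PC3-PDEF, against 7.30 and 7.30 in PC3-SCR, and was at least 3.03-fold lower. The death receptor gene TNFRSF10A was at least 2.72-fold lower, and the adaptor gene TRADD fell by 1.16. FADD, the adaptor of CASP8 and CASP10, showed a log2 difference of 0.01 (limma, adjusted p = 0.895). PIDD1 and CRADD, which assemble the platform of CASP2, did not pass the test either (adjusted p = 0.280 and 0.0798 from limma).

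Of 9 measured inhibitors of caspases and their regulators, of 10 listed, XIAP alone rose and 4 fell, while 4 missed the threshold, with a median log2 fold change of -0.19. This share too was near the 50.7% of all genes called. XIAP, which binds CASP9 directly, rose by 0.47 (adjusted p = 0.0134 from limma), and lost its call with the replicate number as a block (adjusted p = 0.0508), without either PC3-SCR array (adjusted p = 0.133 and 0.141) and without PC3-PDEF replicate 2 (adjusted p = 0.0731). BIRC2, a ubiquitin ligase of tumour necrosis factor receptor signalling, fell by 1.23, with 8.43 and 8.61 in PC3-PDEF against 9.71 and 9.78 in PC3-SCR. NOL3 fell by 0.49. BIRC7, near background on all arrays, fell by 0.27, but lost its call whichever array was left out (adjusted p between 0.0771 and 0.196), and each omission left 2 genes of the list lower.

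The inflammasome and pyroptosis list had the lowest median, -0.43. Of 20 genes measured, of 23 listed, 3 rose, against 26.7% of all genes, 11 fell, against 24.0%, and 6 missed the threshold. Measured differences of at least 2-fold were found for 9, against 14.8% of all genes, several of them with 1 group or both near background. IL1B, the cytokine that CASP1 matures, had 8.06 and 8.06 in PC3-PDEF, against 12.75 and 12.68 in PC3-SCR. IL18, its other cytokine target, had 3.32 and 3.47 in PC3-PDEF, near background, against 6.29 and 6.28 in PC3-SCR. The DNA sensor gene IFI16 was at least 3.08-fold lower. GSDMD, the pore protein cut by CASP1 and CASP4, had 5.70 and 5.51 in PC3-PDEF, against 7.73 and 7.74 in PC3-SCR, and GSDME, the pore protein cut in apoptosis, fell by 1.58. The sensor gene NLRP3 was at least 2.20-fold lower. PYCARD, the adaptor that joins sensors to CASP1, had 5.52 and 5.55 in PC3-PDEF, near background, against 6.18 and 6.19 in PC3-SCR, and was called lower as well. GSDMD, GSDME, NLRP3 and PYCARD, all of them lower, were named after their values were seen, for their direct link to the members. Other inflammasome genes of the list did not pass the test. Among them were NAIP (log2 fold change 0.235), NEK7 (-0.25) and, near background on all arrays, NLRC4 (-0.125) and MEFV (-0.365). The members that rose were CARD8, a sensor that engages CASP1, by 1.11, NINJ1, which ruptures the membrane of dying cells, by 0.49, and the dipeptidyl peptidase gene DPP8 by 0.35. DPP9, the other dipeptidyl peptidase gene of the list, fell by 1.47 (adjusted p = 5.39e-05 from limma). NINJ1 lost its call without PC3-SCR replicate 2, PC3-PDEF replicate 1 or PC3-PDEF replicate 2 (adjusted p from 0.0689 to 0.109), and DPP8 without any 1 array (adjusted p from 0.0685 to 0.132). Only 1 gene of the list was higher in each fit without PC3-SCR replicate 2, PC3-PDEF replicate 1 or PC3-PDEF replicate 2.

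Of 19 measured substrates that caspases cut in apoptosis, of 20 listed, 8 rose and 3 fell, while 8 missed the threshold, with a median log2 fold change of 0.17. Of all genes 50.7% were called, a share near that of this list. DFFA, the inhibitor of the apoptotic DNase, had 9.83 and 9.79 in PC3-PDEF, against 8.58 and 8.49 in PC3-SCR, and rose by 1.27. The DNA repair enzyme gene PARP1 rose by 0.94 and the lamin gene LMNB1 by 0.73. LMNA, which encodes the lamin A that CASP6 cuts, had 6.66 and 6.67 in PC3-PDEF, against 7.80 and 7.76 in PC3-SCR, and fell by 1.11 (adjusted p = 7.61e-05 from limma). CASP6 and LMNA thus moved in opposite directions. The kinase gene PAK2 fell by 0.99 and the channel gene PANX1 by 0.58, and PAK2 had an adjusted p of 0.0537 or 0.0505 without 1 of the PC3-SCR arrays. Without PC3-SCR replicate 1, PC3-PDEF replicate 1 or PC3-PDEF replicate 2, 5, 5 and 4 genes of the list were higher.

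**Figure D4:**
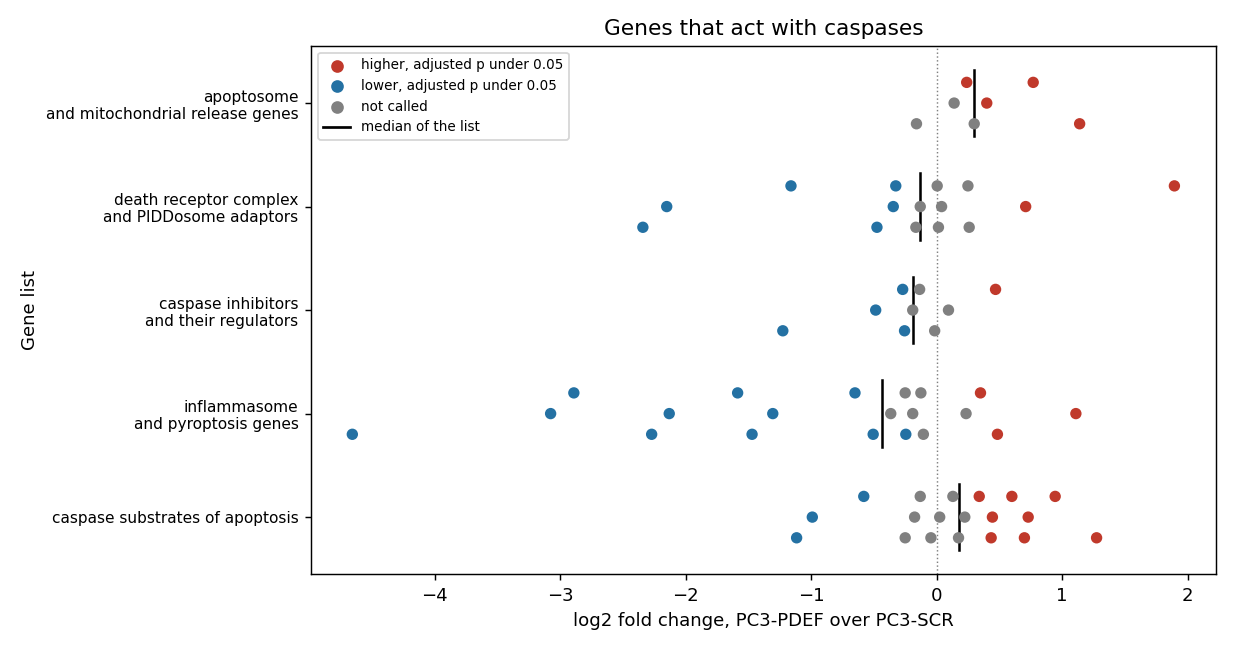
Log2 fold change between PC3-PDEF and PC3-SCR (horizontal axis) of each measured gene in 5 lists of genes that act with caspases (vertical axis, points spread vertically for legibility), coloured by the limma call, with the median of each list as a line. The inflammasome and pyroptosis genes reach -4.66 (IL1B) and have a median of -0.43, while the apoptosome genes have a median of 0.30.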

How the data were processed

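RNA of 2 PC3-PDEF and 2 PC3-SCR samples was hybridized to HuGene-1.0-st-v1 arrays. The deposited log2 values, 1 per array for 33297 probe sets, came from the authors, whose processing notes name Transcriptome Analysis Console. No version, background correction, normalization or genome build is stated there or in the methods, and the log base was inferred from the range of values. Array medians lay between 5.41 and 5.46, so the values were used as deposited. The number of arrays limits the precision. The 19460 probe sets with 1 symbol were kept, 1754 with several and 12083 not listed were left out, and 99.8% of the kept ones had their symbol in RefSeq annotation (GRCh38.p14). The probe set with the highest mean stood for each of 18417 genes.

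The comparison used lmFit and eBayes of limma 3.58.1 in R 4.3.3 (two-sided, 2 residual and 4.23 prior degrees of freedom), with Benjamini-Hochberg adjustment over all genes and a call at an adjusted p under 0.05. The fit was tested on simulated data with 200 of 18417 genes changed, where 66% of 2-fold and 87% of 4-fold changes were called. In the real data 50.7% of genes were called, and the adjusted p depends on that share, so these rates need not hold there. With 2 arrays a group, the smallest two-sided p of an exact permutation test is 0.333. Since separate cultures are stated nowhere, each p-value reflects array-to-array spread alone, which may be technical. Pearson's r over probe sets was 0.994 and 0.996 within groups and 0.954 to 0.956 between them.

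Named were all members, up to 3 genes with the largest rises and falls of each list, the 3 nearest measured genes on each side of the caspase loci, and the 3 profiles nearest to the most changed member. Windows were aligned with Biopython 1.88. Members and lists were chosen with earlier results of these data known. Alternatives were other scalings, filters, floors, variance models, a replicate block and leaving out each array.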

Additional observations from a re-analysis of the deposited data

How the results depend on the processing

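The fall of CASP4 and the rises of CASP2 and CASP6 kept their direction and call under every alternative run. Of the 8 members, 4 lay above the median level, and with genes below it left out, 1 caspase was lower, as also with the replicate number as a block, where CASP1 had an adjusted p of 0.0645. Same-numbered arrays showed almost no shared deviation (correlation of same-numbered deviations 0.022), which cannot show whether they were prepared in pairs. This block also left 0 inhibitors higher and 2 lower. With each array floored at its highest olfactory receptor gene, every gene at the floor took the difference between the floors, -0.275, which is also the median of all genes there. CASP10 (-0.275), CARD18 (-0.275) and CFLAR (-0.265) reversed, 4 caspases, 7 inhibitors, 6 substrates, 1 apoptosome gene and 11341 of all genes were lower. With 1 floor of 5.84 for all arrays, chosen after seeing the data, CASP10 and CASP1 lay at the floor, 1 caspase was lower, 0 inhibitors were higher, 1 apoptosome gene was lower, and 3181 of all genes were higher and 2360 lower. Quantile normalization gave 1 lower apoptosome gene. Median centring gave 4 higher death receptor and PIDDosome genes and 2 lower inhibitors, as many lower as with all probe sets tested. Above the median level 5 inflammasome genes were lower, as genes called lower in the main fit, IL18 and IFI16 among them, were left out there. The cause of the other changes was not tested.

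Leaving out 1 array at a time gave 3 higher and 1 to 2 lower caspases, and 3010 to 3635 higher and 2326 to 2856 lower genes of all. It gave 2 to 3 higher and 0 lower apoptosome genes, 2 higher and 4 to 5 lower death receptor and PIDDosome genes, 0 to 1 higher and 2 lower inhibitors, 1 to 2 higher and 9 to 11 lower inflammasome genes, and 4 to 6 higher and 2 to 3 lower substrates. Signals near background limit CASP1, CASP5 and CASP10.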

Other observations

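Beyond the 8 members and CASP12, the table holds CASP14, a caspase of skin keratinization. CASP14 had log2 signals of 3.47 and 3.44 in PC3-PDEF, against 4.05 and 3.83 in PC3-SCR, near background on all 4 arrays, with a log2 difference of -0.48 (adjusted p = 0.00769 from limma).

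Some regulators carry more than 1 probe set, and these did not always give the same value. For CFLAR the second probe set, not used for the gene, had 5.16 and 4.73 in PC3-PDEF, against 4.29 and 4.36 in PC3-SCR, a log2 fold change of 0.62 (adjusted p = 0.0444 from limma over all probe sets), where the brighter one gave 0.04. With the mean of both, CFLAR showed a log2 difference of 0.33 (adjusted p = 0.0353 from limma). For CARD8 the second probe set was near background and showed a log2 difference of -0.24 (adjusted p = 0.291 from limma over all probe sets), where the brighter one gave 1.11. All these CFLAR and second CARD8 signals, apart from the brighter CFLAR probe set on PC3-PDEF replicate 1, were below the highest olfactory receptor gene.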
